A study of Mus musculus with 4 samples.

Results

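The subject is a set of 10 genes that mark the exhausted, memory and effector states of T and NK cells: Tox, Tox2, Tcf7, Lef1, Id3, Id2, Eomes, Tbx21, Bach2 and Slamf6. They were taken by symbol from the 32285 features of the count matrices, and all 10 were found with their gene identifiers. The knockout group was 2 libraries, cKO-1 and cKO-2, of the conditional Trim25 knockout. The title of the series sets the ablation in T cells. Its comparison group was 2 libraries, WT-1 and WT-2, from WT mice. All mice were 8 weeks old when 100000 MC38 cells were injected under the skin, and CD45-positive cells were sorted from the tumours for single-cell RNA sequencing of transcript 3' ends. MC38 is a mouse colorectal tumour line. Neither the Cre driver nor the deleted exons of the Trim25 allele are stated in the sources used here. Nothing in the labels says that each library is a separate animal, and the p-values below therefore speak only to how far these libraries differ, a spread that may be technical. Trim25 encodes a ubiquitin ligase, and the title links its loss to VISTA, an inhibitory checkpoint protein. The comparison here asks at what level the 10 genes stood in each lymphocyte subset and how these levels compared between the genotypes.

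T cells that meet antigen for long periods in tumours take up an exhausted state, in which inhibitory receptors such as PD-1 stay on the surface and the nuclear proteins TOX and TOX2 accumulate. A smaller pool of stem-like exhausted cells keeps TCF-1, encoded by Tcf7, together with its relative LEF-1, the inhibitor ID3, the repressor BACH2 and the surface receptor Slamf6, and feeds the more differentiated cells. ID2, T-bet (Tbx21) and EOMES are linked to effector and NK cell programmes, and ID2 and ID3 both bind E proteins and keep them from DNA. Slamf6 is the only one of the 10 that is a receptor and not a regulator of transcription.

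Because TCF-1 and LEF-1 bind DNA through the same short word, the 250 bases before the start site were read for the members whose levels separated naive-like T cells (Tcf7, Lef1, Bach2) from NK cells (Eomes, Tbx21, Id2). Sequences are from RefSeq for GRCm38.p6, 5′ to 3′ on the gene's strand, and capitals mark CTTTGA on either strand, which reads TCAAAG on the other strand. CTTTGA, 1 form of the word read by TCF-1 and LEF-1, was found in 13.8% of 32851 mouse promoter windows of this length. Of the 9 members with a window in the RefSeq table, CTTTGA was found in Bach2, in 1 of 4 Lef1 windows and in 2 overlapping windows of 5 for Tox2, and in 0 of 2 Tcf7 windows. TCACAC, a word read by T-box proteins such as EOMES and T-bet, was in 12.3% of all windows and in none of the members'. A match or its absence describes the letters of these windows only.
Tcf7 window 1, chr11:52283015-52283264, minus strand: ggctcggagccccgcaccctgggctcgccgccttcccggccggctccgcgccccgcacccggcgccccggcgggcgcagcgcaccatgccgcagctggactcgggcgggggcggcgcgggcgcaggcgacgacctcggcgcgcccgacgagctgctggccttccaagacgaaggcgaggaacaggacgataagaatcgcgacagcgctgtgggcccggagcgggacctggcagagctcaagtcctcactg
Lef1 window 1, chr3:131110047-131110296, plus strand: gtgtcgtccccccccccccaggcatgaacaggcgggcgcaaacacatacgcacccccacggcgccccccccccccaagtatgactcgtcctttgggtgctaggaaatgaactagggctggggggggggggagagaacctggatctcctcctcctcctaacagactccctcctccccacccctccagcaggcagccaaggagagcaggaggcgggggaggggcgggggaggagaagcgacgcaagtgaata
Lef1 window 4, chr3:131156044-131156293, plus strand: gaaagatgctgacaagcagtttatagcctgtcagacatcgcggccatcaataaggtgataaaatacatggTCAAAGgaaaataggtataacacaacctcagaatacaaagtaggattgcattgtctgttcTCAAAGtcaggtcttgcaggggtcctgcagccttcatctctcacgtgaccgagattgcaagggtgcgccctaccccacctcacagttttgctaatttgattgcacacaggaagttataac
Bach2, chr4:32417185-32417434, plus strand: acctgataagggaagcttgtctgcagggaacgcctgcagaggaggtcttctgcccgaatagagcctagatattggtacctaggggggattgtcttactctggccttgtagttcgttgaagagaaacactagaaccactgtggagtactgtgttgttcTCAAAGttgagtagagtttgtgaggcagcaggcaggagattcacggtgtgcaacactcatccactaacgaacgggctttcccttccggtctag
Eomes, chr9:118477939-118478188, plus strand: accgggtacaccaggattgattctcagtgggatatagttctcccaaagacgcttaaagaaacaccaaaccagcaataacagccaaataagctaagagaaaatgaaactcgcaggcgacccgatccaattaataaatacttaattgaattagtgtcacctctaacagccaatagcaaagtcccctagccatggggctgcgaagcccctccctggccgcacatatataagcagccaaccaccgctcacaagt
Tbx21, chr11:97115332-97115581, minus strand: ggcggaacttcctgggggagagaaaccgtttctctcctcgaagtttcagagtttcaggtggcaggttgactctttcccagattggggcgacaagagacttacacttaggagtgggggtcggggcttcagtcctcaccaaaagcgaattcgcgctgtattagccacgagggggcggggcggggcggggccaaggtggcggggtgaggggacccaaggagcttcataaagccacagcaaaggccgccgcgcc
Id2, chr12:25096093-25096342, minus strand: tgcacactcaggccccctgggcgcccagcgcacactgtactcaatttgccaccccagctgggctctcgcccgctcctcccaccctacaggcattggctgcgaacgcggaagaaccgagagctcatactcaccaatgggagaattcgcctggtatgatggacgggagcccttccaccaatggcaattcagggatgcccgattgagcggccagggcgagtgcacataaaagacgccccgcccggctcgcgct
The Lef1 window with 2 matches lies within the gene body, which spans 131110471 to 131224356 on chromosome 3, and the Lef1 window that starts at 131110047 lies just ahead of that gene body. The Bach2 window also lies within its gene body, which spans 32238804 to 32586108 on chromosome 4. The same holds for the Id2 window, in a gene that spans 25093799 to 25097140 on chromosome 12. The Tcf7 window not printed here and the Tox2 windows with a match lie within their gene bodies too. Tcf7 window 1 lies just ahead of the annotated gene body, but the frame from its ATG (atgccgcag) has no stop codon up to the window's end. It may thus hold coding bases of a longer transcript. The lack of CTTTGA there is not a reading of bases before a start site alone. In the GENCODE annotation of GRCm38, Tox lies on chromosome 4 from 6686353 to 6991557, Tcf7 on chromosome 11 from 52252371 to 52283014, and Slamf6 on chromosome 1 from 171917515 to 171953170.

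The libraries held 96751399 to 127449324 UMIs in 8533 to 12318 barcodes each, and 8205 to 12092 cells per library passed the filters, with a median of 7795.5 to 10017 UMIs per cell. Libraries shared 42 to 59 cell barcodes in any pair. T and NK cells were clustered without the 10 members, Trim25, Vsir or Cd4, and 11 subsets were named from marker genes, with cut-offs set after cluster values were seen. Names stand for clusters that resemble a type by its markers. PD-1 positive CD8 T cells numbered 195 and 294 in cKO-1 and cKO-2, against 251 and 296 in WT-1 and WT-2. PD-1 low CD8 T cells numbered 111 and 80 in cKO and 180 and 253 in WT libraries. Trim25 itself was at 52.9 and 49.5 CPM (UMIs per 1e+06 UMIs of the summed cells) in cKO T cells, against 67.1 and 64.1 CPM in WT T cells, with CD8, CD4 conventional and regulatory T cells (Treg) pooled (log2 fold change -0.35 ± 0.11 SE, adjusted p = 0.45). A 3' tag outside the deleted exons checks nothing, and which exons were deleted is not known here. These values can therefore not be read as a test of the knockout.

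Across the subsets, Tox was highest in PD-1 positive CD8 T cells at 1087 ± 77.8 CPM and in Treg at 1073 ± 96.6 CPM (SD, n = 4 libraries throughout for levels by subset). The libraries of these 2 subsets overlapped, so their order is not set by the data. Gamma-delta T cells followed at 766 ± 107 CPM, a level whose libraries did not overlap those of Treg. Cycling CD8 T cells stood at 756 ± 153 CPM and PD-1 low CD8 T cells at 709.9 ± 296 CPM, a wide spread that is taken up below. Naive-like T cells held 396 ± 47.5 CPM of Tox, CD4 conventional T cells 316 ± 52.3 CPM and Gzmc-high NK cells, the lowest, 172 ± 10.2 CPM. Tox was detected in every subset, with a 6.33-fold range of means. Tox2, its close relative, was at 10.2 ± 2.05 CPM in Treg from 63 UMIs in all and 7.54 ± 5.16 CPM in PD-1 low CD8 T cells from 37 UMIs. In Ly49 T cells, a cluster of T cells with Ly49 receptor genes, no Tox2 UMI was counted.

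Tcf7, Lef1 and Bach2 shared a peak in naive-like T cells. Tcf7 stood there at 561 ± 45.3 CPM, 2.60 times the level of the next subset, CD4 conventional T cells, at 216 ± 48.3 CPM. Ly49 T cells held 192 ± 15.2 CPM and gamma-delta T cells 144 ± 47.6 CPM, and these 3 overlapped in neighbouring pairs. The lowest Tcf7 levels were in Treg, at 13.97 ± 7.98 CPM, and in PD-1 positive CD8 T cells, at 13.97 ± 1.31 CPM, so naive-like T cells stood 40.2-fold above PD-1 positive CD8 T cells. Lef1 spanned a 109-fold range, with 1191 ± 115 CPM in naive-like T cells, 254 ± 40.1 CPM in Ly49 T cells and 10.9 ± 5.63 CPM in PD-1 positive CD8 T cells. Bach2, a repressor of effector genes, was at 1208 ± 77.6 CPM in naive-like T cells, with Gzmc-low NK cells next at 367 ± 48.5 CPM and Ly49 T cells at 344 ± 57.7 CPM. Treg held the least Bach2, 48.4 ± 9.36 CPM.

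Slamf6 and Id3 departed from that order. Slamf6 was at 186 ± 27.1 CPM in CD4 conventional T cells and at 176 ± 49.0 CPM in naive-like T cells, with overlapping libraries. It stood at 59.5 ± 14.4 CPM in PD-1 low CD8 T cells, 11.6 ± 3.32 CPM in PD-1 positive CD8 T cells and 1.87 ± 0.461 CPM in Gzmc-high NK cells. Id3 was highest in Ly49 T cells at 33.0 ± 9.87 CPM and in naive-like T cells at 26.5 ± 10.6 CPM, and in PD-1 positive CD8 T cells it was at 2.62 ± 0.942 CPM. Every neighbouring pair in the Id3 order overlapped.

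Id2 and Eomes were highest in the 3 NK subsets, and Tbx21 in Gzmc-low NK cells alone. Id2, which keeps E proteins from DNA, was at 2156 ± 235 CPM in Gzmc-high, 1996 ± 98.9 CPM in Gzmc-low and 1807 ± 154 CPM in cycling NK cells. PD-1 positive CD8 T cells came next at 1340.3 ± 98.6 CPM, below every NK library, and naive-like T cells were lowest at 257 ± 35.8 CPM. Eomes stood at 399.7 ± 28.3 CPM in Gzmc-low NK cells, 347 ± 26.9 CPM in Gzmc-high NK cells and 306 ± 32.4 CPM in cycling NK cells. Among T cells it was highest in PD-1 low CD8 T cells, at 145 ± 37.2 CPM, and PD-1 positive CD8 T cells held 22.5 ± 6.73 CPM. In gamma-delta T cells a single Eomes UMI was counted in all 4 libraries. Tbx21 was at 226 ± 17.4 CPM in Gzmc-low, 147 ± 19.7 CPM in Gzmc-high and 124 ± 12.2 CPM in cycling NK cells. In Ly49 T cells it was at 157 ± 30.3 CPM. It stood at 174 ± 12.3 CPM in PD-1 positive and at 126 ± 20.5 CPM in PD-1 low CD8 T cells. The 2 T-box genes thus ranked these CD8 T subsets in opposite order, in each case without overlap of libraries.

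**Figure D1:**
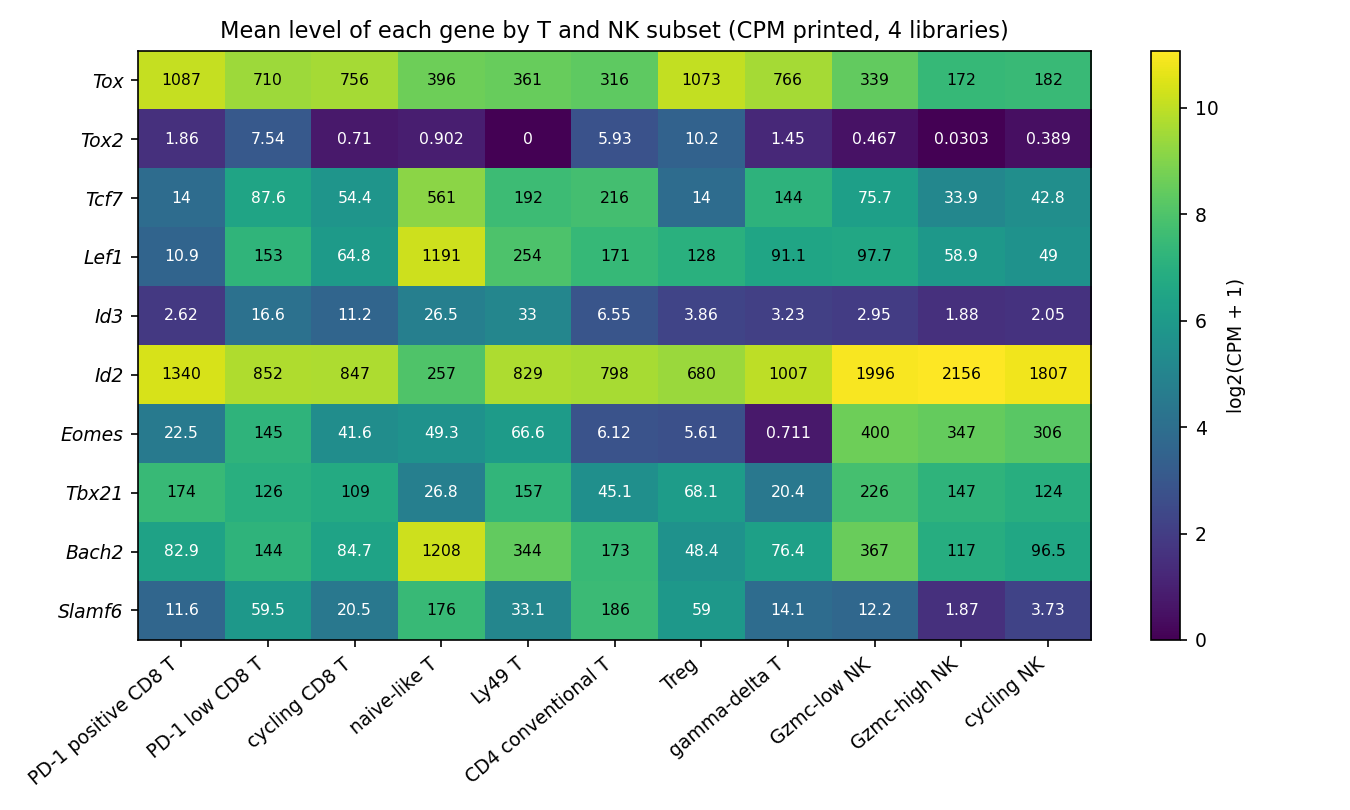
Mean level of the 10 genes (rows) in 11 T and NK subsets (columns), with the mean CPM of 4 libraries printed in each cell and colour showing log2(CPM + 1). Tcf7, Lef1 and Bach2 peak in naive-like T cells, Id2 and Eomes in NK cells, Tbx21 in Gzmc-low NK cells, and Tox in PD-1 positive CD8 T cells and Treg.

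Over the 11 subset means, Tcf7 and Lef1 varied together (Pearson r of log2(CPM + 1) 0.81), Tcf7 and Bach2 likewise (0.78), and Eomes with Tbx21 (0.72), while Id2 ran against Slamf6 (-0.85) and against Lef1 (-0.76). These coefficients are descriptions, since the 11 points come from the same 4 libraries. Among 9552 genes with at least 10 CPM in 1 subset or more, the gene most like a member was Mbip for Tox (0.92), Sh3glb1 for Tox2 (0.94), Bzw2 for Tcf7 (0.97), Nsg2 for Id3 (0.95), Abcb10 for Id2 (0.96), Samd3 for Eomes (0.95), Gm19585 for Tbx21 (0.97), Satb1 for Bach2 (0.94) and Phf11d for Slamf6 (0.96). Also among the 3 most like were Aopep for Tox, Taldo1 and 1500004A13Rik for Tox2, Tnfrsf26 and Dop1a for Tcf7, Bbc3 and Bcl9l for Lef1, Uspl1 and Ifngas1 for Id3, Ociad1 and Sh3bgrl3 for Id2, Bcl2l11 and Pabpc1 for Eomes, Setbp1 and Eci1 for Tbx21, Rplp1 and Foxp1 for Bach2, and Dgka and Zc3h6 for Slamf6.

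In CD8 T cells (PD-1 positive and PD-1 low cells pooled), 9 of the 10 genes had a log2 fold change below 0 in cKO over WT, with a median of -0.36, where 49.9% of 10896 genes lay below 0. None of the 10 passed an adjusted p of 0.05 in edgeR, where 0.0367% of all genes passed as higher and 0.0275% as lower in cKO. At an unadjusted p under 0.05 there were 4 of 10 (Tox2, Lef1, Eomes and Slamf6), against 7.04% of all genes, and DESeq2 called 0. Both cKO libraries lay below both WT libraries for the same 4 genes, which 18.9% of all genes did. None of the 10 had both cKO libraries above both WT libraries, against 16.9% of all genes.

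Slamf6 had the smallest p of the 10 in CD8 T cells. It stood at 22.7 and 12.0 CPM in cKO-1 and cKO-2, against 31.2 and 30.5 CPM in WT-1 and WT-2 (log2 fold change -0.86 ± 0.24 SE, adjusted p = 0.25). Lef1 was at 45.9 and 25.9 CPM in cKO and at 57.0 and 56.1 CPM in WT CD8 T cells (-0.67 ± 0.20, adjusted p = 0.31). Eomes was at 55.0 and 35.5 CPM in cKO and at 65.2 and 65.7 CPM in WT CD8 T cells (-0.54 ± 0.17, adjusted p = 0.36). Leaving out cKO-1 gave -0.87 for Eomes and leaving out cKO-2 gave -0.26, and it passed with the replicate number as a block (adjusted p = 0.014). In all 3 genes cKO-2 lay furthest from WT. Tox2 rested on 5 and 10 UMIs in cKO and 32 and 15 UMIs in WT CD8 T cells (-1.48 ± 0.56, adjusted p = 0.56). Without the filter on low counts 2 of the 10 passed the threshold, Lef1 (adjusted p = 0.012) and Slamf6 (adjusted p = 0.0099), and both also passed without WT-1 (adjusted p = 0.017 and 0.020). Lef1 had a log2 fold change of -1.11 without cKO-1 and of -0.30 without cKO-2, and Slamf6 of -1.34 without cKO-1 and of -0.45 without cKO-2.

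The remaining 6 genes overlapped between the genotypes in CD8 T cells. Tox was at 814 and 1121 CPM in cKO and at 1051 and 1009 CPM in WT cells (-0.08 ± 0.14), so the 2 cKO libraries lay on either side of WT. Tcf7 was at 31.5 and 26.8 CPM in cKO and at 39.0 and 30.3 CPM in WT cells (-0.24 ± 0.18). Bach2 was at 90.2 and 81.5 CPM in cKO and at 126.7 and 86.6 CPM in WT cells (-0.30 ± 0.16), and its log2 fold change was -0.54 without WT-2 (adjusted p = 0.048) and -0.02 without WT-1. Id2 had a log2 fold change of -0.10 ± 0.12, Id3 of -0.42 ± 0.38 and Tbx21 of 0.12 ± 0.13.

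**Figure D2:**
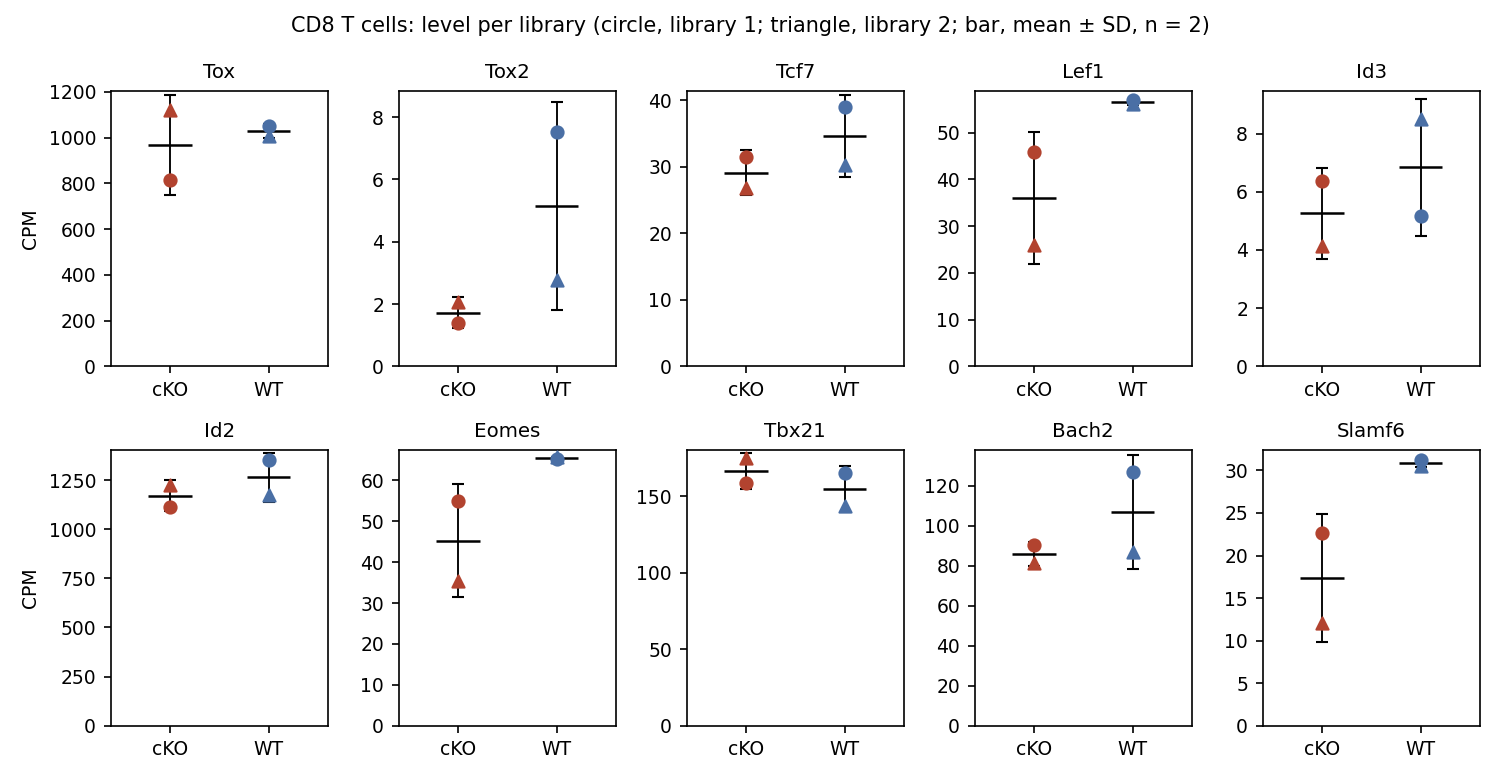
Level of the 10 genes in CD8 T cells in CPM, 1 panel per gene, with cKO left of WT. Points are libraries (n = 2 per genotype), and bars give the mean ± SD. The cKO libraries lie below the WT libraries for Tox2, Lef1, Eomes and Slamf6.

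PD-1 positive cells made up 63.7% and 78.6% of the CD8 T cells in cKO-1 and cKO-2, against 58.2% and 53.9% in WT-1 and WT-2. Eomes and Slamf6 were each lower in PD-1 positive than in PD-1 low cells, as given above. So were Lef1 (10.9 against 153 CPM) and Tox2 (1.86 against 7.54 CPM, from 25 and 37 UMIs). Tcf7 (13.97 against 87.6 CPM), Bach2 (82.9 against 144 CPM) and Id3 (2.62 against 16.6 CPM) were lower as well. Tox, Id2 and Tbx21 were higher. A pooled level therefore moves with the share of PD-1 positive cells. Its part in the pooled values was not tested, but the subsets were also fitted alone. Within PD-1 positive CD8 T cells none of the 9 members tested passed the threshold in edgeR or DESeq2, and 1 had an unadjusted p under 0.05, against 6.87% of all genes. Calls over all genes there were 0.00965% higher and 0.0193% lower. Of the 9, both cKO libraries lay below both WT libraries in 3 (Id3, Id2 and Slamf6), against 17.9% of all genes, and above them in 1, against 17.3%. The member with an unadjusted p under 0.05, Eomes, was higher in both cKO libraries, at 30.4 and 24.4 CPM, against 14.3 and 20.9 CPM in WT (0.61 ± 0.24, adjusted p = 0.61). Tox was at 1002 and 1184 CPM in cKO and at 1108 and 1054 CPM in WT cells (0.03 ± 0.13). Tcf7 was at 14.3 and 13.99 CPM in cKO and at 12.2 and 15.4 CPM in WT cells (0.03 ± 0.27). Slamf6 was at 12.0 and 6.996 CPM in cKO and at 14.96 and 12.3 CPM in WT cells (-0.55 ± 0.32), and Lef1 overlapped (-0.36 ± 0.45). Bach2 was at 78.0 and 65.9 CPM in cKO and at 121 and 66.3 CPM in WT cells (-0.37 ± 0.21). Without WT-2 it passed the threshold (-0.74, adjusted p = 0.0050), and without WT-1 its log2 fold change was 0.10.

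In PD-1 low CD8 T cells Tox was at 284 and 732 CPM in cKO-1 and cKO-2, against 923 and 899.8 CPM in WT-1 and WT-2 (-0.88 ± 0.26, adjusted p = 0.35). The cKO-1 library stood far below the other 3, and the size of the difference rested on it. Without cKO-1 the log2 fold change was -0.32 (adjusted p = 0.41). Without cKO-2 it was -1.69 (adjusted p = 3.1e-20), without WT-1 -0.87 (adjusted p = 0.0030) and without WT-2 -0.88 (adjusted p = 0.0032). With no filter on low counts its adjusted p was 5.3e-08, and with doublets kept 0.033. Eomes, the T-box gene that was highest here among T cells, was at 124 and 104 CPM in cKO and at 179 and 175 CPM in WT cells (-0.64 ± 0.18, adjusted p = 0.33). Slamf6 was at 52.7 and 43.0 CPM in cKO and at 67.4 and 75.0 CPM in WT cells (-0.57 ± 0.23, adjusted p = 0.62). Tcf7 overlapped, with 80.0 and 105 CPM in cKO and 98.5 and 66.7 CPM in WT cells (0.14 ± 0.23), and so did Lef1 (-0.18 ± 0.18) and Bach2 (0.11 ± 0.19). None of the 9 members tested passed in edgeR or DESeq2, with calls over all genes at 0.0597% higher and 0% lower. At an unadjusted p under 0.05 there were 4 of 9 (Tox, Id2, Eomes and Slamf6), against 7.03% of all genes. Both cKO libraries lay below both WT libraries in 3 of 9, against 17.7% of all genes. Id2 had a log2 fold change of -0.36 ± 0.14 and passed without cKO-2 (-0.56, adjusted p = 0.034), while without cKO-1 it was -0.17 (adjusted p = 0.80).

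The PD-1 low subset was mixed. Its 6 macrophage markers summed to 1865 and 2841 CPM in cKO and to 1485 and 1386 CPM in WT cells, and its 7 NK markers to 1230.0 and 1553 CPM in cKO and to 802 and 779.7 CPM in WT cells. None of these markers was under 1 CPM. Gzma, 1 of the 7 NK markers, was itself higher in both cKO libraries and held most, not all, of the gap in the NK sums. Its values are given with the list genes below, and whether NK cells were in the subset was not tested. A finer clustering placed 36.9% and 41.3% of the cKO cells and 14.4% and 19.8% of the WT cells of the subset in a cluster whose leading genes included macrophage genes, and that cluster was left unnamed. The part of these markers in the result was not tested. The PD-1 low cells of the finer clustering leave that unnamed cluster out. Among them Tox had a log2 fold change of -0.77 ± 0.30 (adjusted p = 0.69) and Eomes of -0.53 ± 0.22 (adjusted p = 0.70). The Tox value again rested on the cKO-1 library, which stood apart at 341 CPM. Tox in the cKO-2 library, at 1137 CPM, was near its level in WT-1 (1246 CPM) and WT-2 (1221 CPM).

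**Figure D3:**
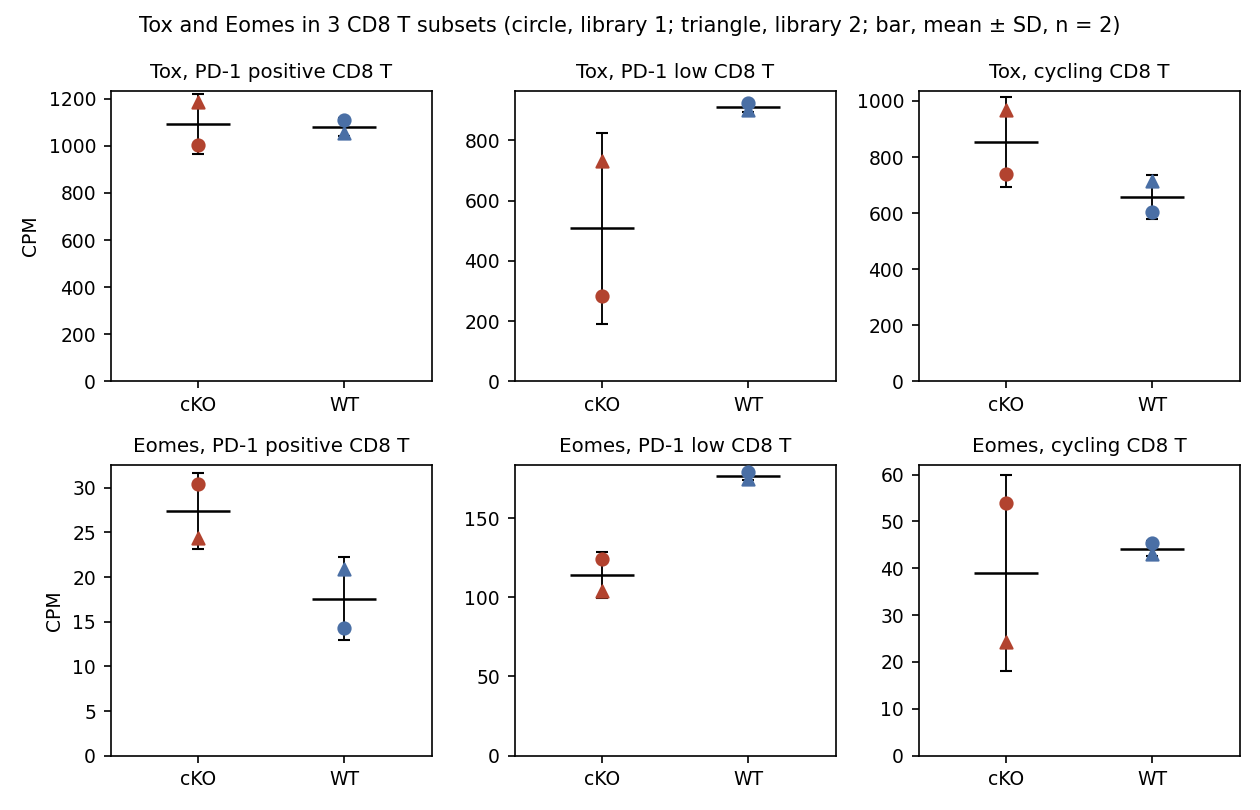
Tox (top) and Eomes (bottom) in CPM in PD-1 positive, PD-1 low and cycling CD8 T cells, with cKO left of WT. Points are libraries and bars the mean ± SD of 2. In PD-1 low cells cKO-1 stands at 284 CPM of Tox and cKO-2 at 732 CPM, and Eomes lies above WT in PD-1 positive and below WT in PD-1 low cells.

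The genotype difference of PD-1 positive cells was tested against that of PD-1 low cells as an interaction in edgeR. Eomes had the smallest p of the members, with a difference in log2 fold change of 1.27 ± 0.27 (unadjusted p = 0.00026, adjusted p = 0.26), followed by Tox with 1.00 ± 0.23 (adjusted p = 0.29). None of the 10 passed, against 0.0395% of all genes. Without cKO-1 the difference for Eomes was 1.25 (adjusted p = 0.032), and without cKO-2 it was 1.28 (adjusted p = 0.021), while without WT-1 it was 1.02 (adjusted p = 1) and without WT-2 1.6 (adjusted p = 0.34). For Tox it was 0.47 without cKO-1 (adjusted p = 0.14) and 1.57 without cKO-2 (adjusted p = 4.2e-19), and it did not pass without WT-1 (1.02, adjusted p = 1) or without WT-2 (0.99, adjusted p = 0.79).

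Within PD-1 positive CD8 T cells the finer clustering separated a smaller cluster with more of the stem-like genes. That cluster, number 21, held Tox at 1509 ± 69.6 CPM, Tcf7 at 50.03 ± 24.0 CPM, Bach2 at 232 ± 53.6 CPM and Slamf6 at 39.5 ± 8.32 CPM. The larger cluster, number 0, held Tox at 974 ± 111 CPM, Tcf7 at 5.13 ± 2.16 CPM, Bach2 at 45.4 ± 17.5 CPM and Slamf6 at 3.41 ± 1.34 CPM. In each of these 4 genes the libraries of the clusters did not overlap. Id2 went the other way, with 969 ± 256 CPM in cluster 21 and 1466 ± 147 CPM in cluster 0, and Lef1 overlapped, at 16.3 ± 7.43 CPM in cluster 21 and 10.5 ± 5.77 CPM in cluster 0. Cluster 21 made up 15.9% and 11.6% of the PD-1 positive cells in cKO-1 and cKO-2, against 32.3% and 22.3% in WT-1 and WT-2. Both cKO shares lay below both WT shares, and with 2 libraries per genotype an exact permutation test cannot go below p = 0.33. Within cluster 21, Tcf7 was at 43.7 and 83.8 CPM in cKO and at 27.3 and 45.3 CPM in WT cells (0.83 ± 0.38, adjusted p = 0.99), and Bach2 at 242 and 300.2 CPM in cKO and at 213 and 173 CPM in WT cells (0.49 ± 0.20, adjusted p = 0.99). Slamf6, lower in both cKO libraries over all PD-1 positive cells, was at 49.4 and 42.9 CPM in cKO and at 34.5 and 31.0 CPM in WT cells of cluster 21 (0.49 ± 0.32, adjusted p = 0.99). Within cluster 0, Bach2 was at 39.8 and 32.6 CPM in cKO and at 71.3 and 37.9 CPM in WT cells (-0.56 ± 0.23, adjusted p = 0.61).

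**Figure D4:**
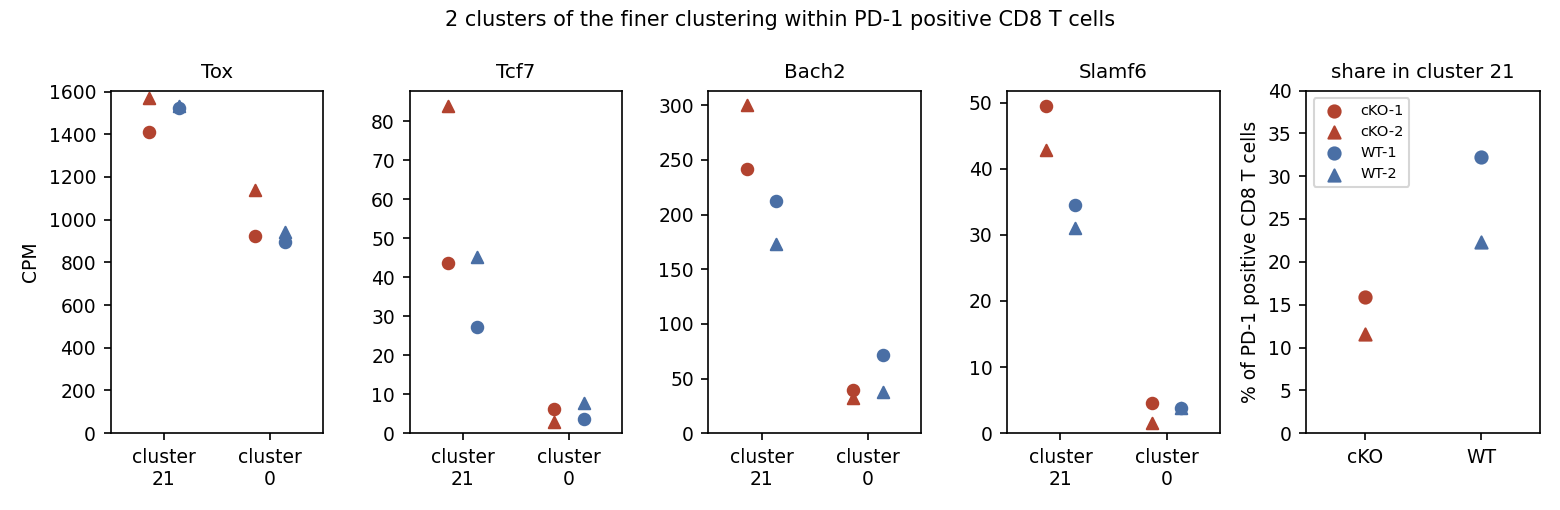
Level of Tox, Tcf7, Bach2 and Slamf6 in CPM per library in clusters 21 and 0 of PD-1 positive CD8 T cells, and (right) the percent of PD-1 positive CD8 T cells in cluster 21, with cKO left of WT. Cluster 21 is higher in all 4 genes, and its share is 15.9% and 11.6% in cKO libraries and 32.3% and 22.3% in WT libraries.

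Cells of the PD-1 positive subset were thinned to 2000 UMIs each to compare shares of cells with a UMI at equal depth. Tox was found in 72.0% and 70.0% of the thinned cells in cKO and in 67.8% and 71.2% in WT libraries, a difference of 1.48 percentage points (exact permutation test over libraries, two-sided, p = 0.667). Tcf7 was found in 2.65% and 2.83% in cKO and in 2.09% and 3.82% in WT libraries (difference -0.22 points, exact permutation test, two-sided, p = 1). Thinned cells with Tcf7 were few, at 5 and 8 in cKO and 5 and 11 in WT libraries, and Tox was also found in 5 and 8 of them in cKO and in 3 and 9 of them in WT libraries. Before thinning the shares were 88.0% to 94.2% for Tox and 5.58% to 10.8% for Tcf7, at median depths of 10672 to 13775.5 UMIs. Macrophages, which should lack both genes, gave 1.02% to 1.74% for Tox and 0.0783% to 0.532% for Tcf7 after thinning, from median depths of 5258.5 to 7931 UMIs. In thinned naive-like T cells Tcf7 was found in 59.8% to 68.2% and Lef1 in 80.4% to 89.2% of the cells.

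Cycling CD8 T cells, counted apart from the CD8 class, held more Tbx21 in both cKO libraries, at 122 and 129.8 CPM, against 94.8 and 91.0 CPM in WT (0.47 ± 0.15, adjusted p = 0.39). Tox was at 739.7 and 968 CPM in cKO and at 603 and 713 CPM in WT cycling cells (0.40 ± 0.16, adjusted p = 0.55). These 2 and Bach2, 3 of 9 members, had an unadjusted p under 0.05, against 7.36% of all genes. None passed in edgeR or DESeq2, and calls over all genes were 0.0521% higher and 0.0417% lower. Bach2 was at 134 CPM in cKO-1 and at 66.9 CPM in cKO-2, against 66.2 and 71.4 CPM in WT (0.56 ± 0.25). The high value was that of cKO-1 alone, since without cKO-1 the log2 fold change was -0.01, and without cKO-2 it was 0.98 (adjusted p = 0.0010).

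In CD4 conventional T cells 8 of the 10 genes had enough counts to test, 4 above 0 and 4 below, and none passed in edgeR or DESeq2, against 0.186% of all genes called higher and 0.0815% lower. Tox, Eomes and Bach2 had an unadjusted p under 0.05, as had 7.79% of all genes. Tox was at 332 and 378 CPM in cKO and at 302 and 253 CPM in WT cells, without overlap (0.36 ± 0.16, adjusted p = 0.56). The finer clustering placed 36.5% and 44.0% of the cKO cells and 35.1% and 26.5% of the WT cells of this class in cluster 13, where Tox was at 521 ± 45.2 CPM, against 214 ± 83.1 CPM in cluster 6 (SD, n = 4). Cluster 6 held 41.0% and 27.0% of the cKO cells and 48.6% and 44.0% of the WT cells. Within the clusters the log2 fold change of Tox was -0.02 ± 0.18 in cluster 13, 0.39 ± 0.26 in cluster 6 and 0.10 ± 0.27 in cluster 25. Eomes rested on 3 and 1 UMIs in cKO and on 12 and 22 UMIs in WT cells (-2.36 ± 0.71, adjusted p = 0.26). Bach2 was at 188 and 208 CPM in cKO and at 190.0 and 105 CPM in WT cells (0.44 ± 0.20). WT-2 was the low library, and without WT-1 Bach2 passed (0.90, adjusted p = 0.0030), while without WT-2 it was 0.07. Slamf6, highest in this class, was at 164 and 223 CPM in cKO and at 187 and 168 CPM in WT cells (0.13 ± 0.17), and Tcf7 at 194 and 197 CPM in cKO and at 288 and 183 CPM in WT cells (-0.25 ± 0.18).

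In Treg 9 of the 10 genes were tested and none passed in edgeR or DESeq2, where 0.0434% of all genes were called in each direction. Bach2 alone had an unadjusted p under 0.05, as had 5.42% of all genes, and it alone of the 9 had both cKO libraries below both WT libraries, as had 18.2%. It was at 39.2 and 41.7 CPM in cKO and at 54.3 and 58.3 CPM in WT Treg (-0.46 ± 0.22, adjusted p = 0.89). Tox, which stood as high here as in PD-1 positive CD8 T cells, was at 943 and 1164 CPM in cKO and at 1062 and 1125 CPM in WT Treg (-0.04 ± 0.13). Tcf7 was at 25.9 and 9.68 CPM in cKO and at 11.3 and 9.10 CPM in WT Treg (0.77 ± 0.43), with cKO-1 the high library, and without cKO-1 the log2 fold change was -0.06.

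The pool of all T cells held CD8, CD4 conventional T cells and Treg, without the naive-like, Ly49, gamma-delta and cycling cells. PD-1 positive CD8 T cells were 195 of 632 and 294 of 716 of its cells in cKO libraries. In WT libraries they were 251 of 906 and 296 of 1150, and the part of this make-up was not tested. Over all T cells pooled, 8 of the 10 genes lay below 0. An unadjusted p under 0.05 was found for 4 (Tcf7, Lef1, Eomes and Slamf6), against 7.41% of 11841 genes. None passed in edgeR or DESeq2, with calls over all genes at 0.0253% higher and 0% lower. Both cKO libraries lay below both WT libraries in 5 of 10, against 19.8% of all genes, and above them in 0, against 16.8%. Over all T cells Eomes had a log2 fold change of -0.53 ± 0.17, Lef1 of -0.35 ± 0.15 and Tcf7 of -0.39 ± 0.18. Without cKO-1, Eomes (-0.82, adjusted p = 0.0043), Lef1 (-0.63, adjusted p = 0.026) and Tcf7 (-0.62, adjusted p = 0.038) passed. Without cKO-2 they were at -0.26, -0.10 and -0.18, and 0 of the 10 had an unadjusted p under 0.05. Without WT-1 Eomes passed (-0.56, adjusted p = 0.046), and without WT-2 Tcf7 passed (-0.63, adjusted p = 0.0046), while without WT-1 Tcf7 was at -0.12.

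NK cells held Trim25 at 41.5 and 46.8 CPM in cKO and at 48.1 and 47.9 CPM in WT libraries (-0.09 ± 0.11). Of 9 members tested in NK cells 8 lay above 0, and none had an unadjusted p under 0.05, against 5.76% of 12086 genes. No gene at all was called in edgeR, and DESeq2 called 8 genes, none of them a member. Id2, which peaked in NK cells, was at 1901 and 1897 CPM in cKO and at 2174 and 2191 CPM in WT NK cells (-0.17 ± 0.10, adjusted p = 0.92). Both cKO libraries lay below both WT libraries, as for 22.6% of all genes. Bach2 had a log2 fold change of 0.31 ± 0.15 and Tcf7 of 0.32 ± 0.15 in NK cells. Without WT-1, Bach2 (0.62, adjusted p = 8.5e-06) and Tcf7 (0.49, adjusted p = 0.0089) passed, while without WT-2 they were at 0.06 and 0.16, and Tcf7 was at 0.11 without cKO-1. In Gzmc-high NK cells, a subset with abundant granzyme C, Tcf7 was at 46.0 and 35.9 CPM in cKO and at 27.5 and 26.0 CPM in WT cells (0.64 ± 0.15, adjusted p = 0.32), and Bach2 at 144 and 133 CPM in cKO and at 111 and 80.4 CPM in WT cells (0.57 ± 0.14, adjusted p = 0.35). Tcf7 passed without cKO-2 (0.81, adjusted p = 0.040) and was at 0.44 without cKO-1 (adjusted p = 0.92). Bach2 passed without WT-1 (0.79, adjusted p = 0.021) and was at 0.36 without WT-2 (adjusted p = 0.78). Over the alternative settings with all 4 libraries Tcf7 was at 0.29 to 0.63 and Bach2 at 0.45 to 0.57. No gene passed in edgeR in this subset, where 3 of 9 members and 6.79% of all genes had an unadjusted p under 0.05. The third of these, Id2, was at 1976 and 1934 CPM in cKO and at 2314 and 2399.9 CPM in WT Gzmc-high cells (-0.25 ± 0.09, adjusted p = 0.63). In Gzmc-low NK cells 0 of 8 members had an unadjusted p under 0.05, against 6.71% of all genes, with Bach2 at 359 and 379 CPM in cKO and at 424 and 308 CPM in WT cells (0.03 ± 0.13) and Id2 at 0.01 ± 0.10. In cycling NK cells it was likewise 0 of 8, against 5.71%. Tested as an interaction, the genotype difference of Gzmc-high over that of Gzmc-low NK cells was 0.51 ± 0.11 for Bach2 (adjusted p = 0.29) and -0.27 ± 0.07 for Id2 (adjusted p = 0.66), and none of the 9 members tested passed, against 0.00927% of all genes. Without WT-1 this difference for Id2 passed (-0.35, adjusted p = 0.030), and without each of the other 3 libraries it did not, with -0.18 without WT-2 (adjusted p = 0.68).

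Ly49 T cells gave the smallest unadjusted p of any member and subset. Id2 was at 688 and 631 CPM in cKO-1 and cKO-2, against 1061 and 935 CPM in WT-1 and WT-2 (-0.59 ± 0.13, unadjusted p = 0.00012, adjusted p = 0.22). Of the 9 members tested, both cKO libraries lay below both WT libraries in 2, Id2 among them, against 17.5% of all genes. They lay above in 1, also against 17.5%. Over the alternative settings with all 4 libraries, the log2 fold change of Id2 was -0.61 to -0.38. It passed without WT-1 (-0.53, adjusted p = 0.0095), without WT-2 (-0.65, adjusted p = 0.00059) and with no filter on low counts, and not without cKO-1 (-0.67, adjusted p = 0.49) or without cKO-2 (-0.52, adjusted p = 0.83). Id3, its relative, was at 42.0 and 41.0 CPM in cKO and at 22.9 and 26.3 CPM in WT Ly49 T cells (0.74 ± 0.26, adjusted p = 0.58). The alternative settings with all 4 libraries gave 0.41 to 0.76 for Id3. The 7 NK markers in these cells summed to 1008 and 1136 CPM in cKO and to 1519 and 1177 CPM in WT libraries, and their part in the result was not tested. No gene passed in edgeR in these cells, where 3 of 9 members (Id2, Id3 and Tbx21) and 6.20% of all genes had an unadjusted p under 0.05.

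Over the 11 subsets, 93 combinations of a member and a subset had enough counts to test and none passed an adjusted p of 0.05 in edgeR or DESeq2. An unadjusted p under 0.05 was found for 19 (20.4%, against 6.57% of all tests of a gene in these subsets) of them. Both cKO libraries lay below both WT libraries in 21 (22.6%, against 19.1%) and above them in 11 (11.8%, against 16.5%). In gamma-delta T cells Tcf7 was at 107 and 117 CPM in cKO and at 212 and 139 CPM in WT libraries (-0.61 ± 0.25, adjusted p = 0.64), with 37 cells in WT-1. In naive-like T cells, where Tcf7, Lef1 and Bach2 peaked, 0 of 9 members had an unadjusted p under 0.05, against 5.22% of all genes. Tcf7 and Lef1 had both cKO libraries below both WT libraries, against 15.7% of all genes, and no member had both above, against 17.6%. Lef1 was there at 1044 and 1154 CPM in cKO and at 1288 and 1277 CPM in WT cells (-0.23 ± 0.12, adjusted p = 0.95), and at resolution 2 the log2 fold change was 0.0063.

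**Figure D5:**
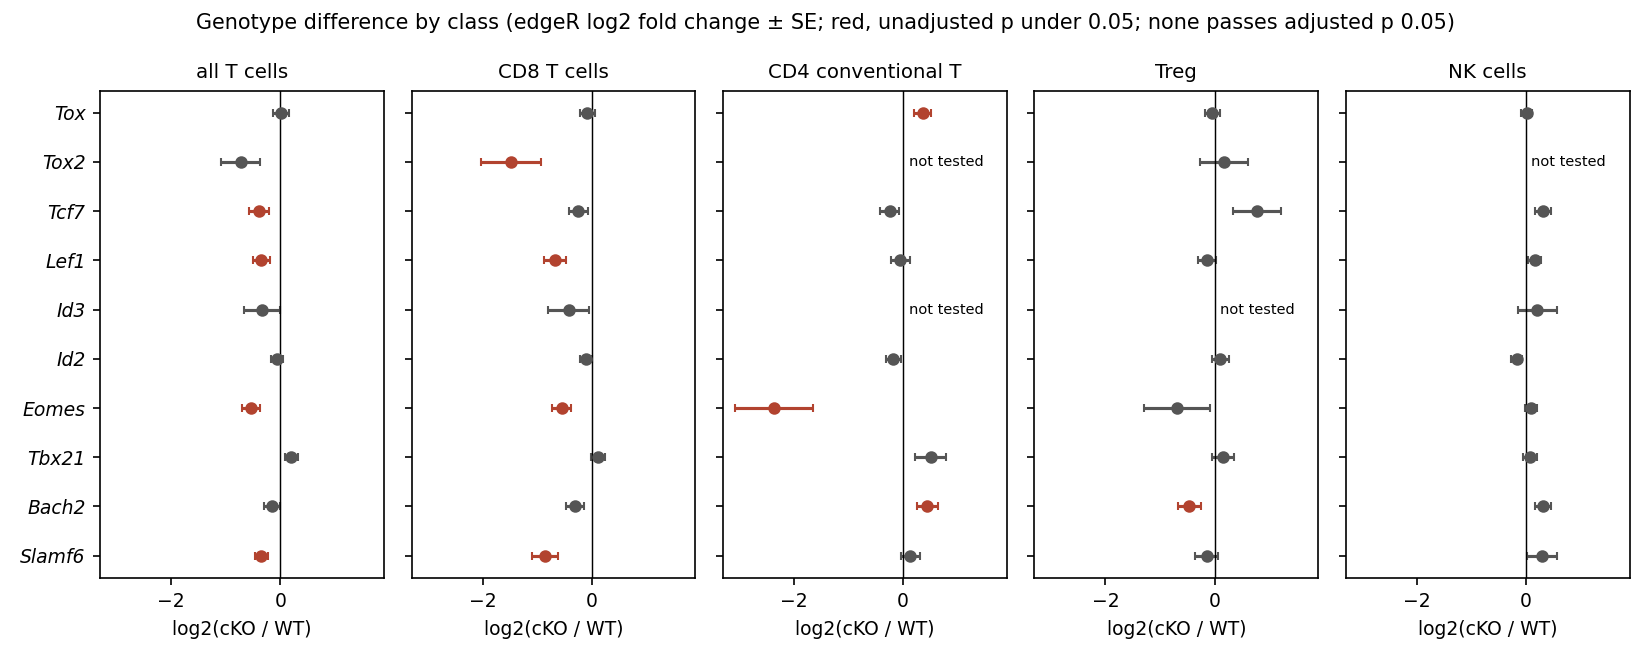
Log2 fold change of cKO over WT ± SE (x axis) from edgeR for the 10 genes (y axis) in all T cells, CD8 T cells, CD4 conventional T cells, Treg and NK cells. Red points have an unadjusted p under 0.05, none passes an adjusted p of 0.05, and genes with too few counts are marked as not tested. CD8 T cells have 9 of 10 points below 0 and NK cells 8 of 9 above 0.

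The difference between classes was itself tested as an interaction with the library as a term. Against CD8 T cells, none of the 10 passed in CD4 conventional T cells, Treg or NK cells, where 0.0355%, 0.0444% and 0.0267% of 11253 genes did. The smallest adjusted p was that of Lef1 in NK against CD8 T cells (difference in log2 fold change 0.86 ± 0.19, adjusted p = 0.12). Bach2 differed by 0.77 ± 0.19 between CD4 conventional and CD8 T cells (adjusted p = 0.16), and in NK against CD8 T cells Eomes differed by 0.65 ± 0.17 and Bach2 by 0.62 ± 0.16 (adjusted p = 0.22 for each).

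Other genes of the same programmes were followed in 5 lists. In CD8 T cells none of 13 exhaustion regulators, 16 memory and stem-like genes, 12 effector genes, 11 partners of the members or 8 genes of the SLAM family and its adaptors passed in edgeR. Irf4, a regulator induced by T cell receptor signals, came closest, at 61.1 and 52.9 CPM in cKO and at 35.4 and 27.9 CPM in WT CD8 T cells (0.86 ± 0.16, adjusted p = 0.074). The other exhaustion regulators at the ends of the list were Nfil3 (0.62 ± 0.23), Batf (-0.36 ± 0.15) and Nfatc2 (-0.63 ± 0.19), and 8 of the 13 lay above 0. Nfil3 was at 0.14 without cKO-2 and at 0.96 without cKO-1. Of the memory and stem-like genes 13 of 16 lay below 0, with a median of -0.30. Fitted alone, PD-1 positive cells had 7 of 13 below 0 (median -0.045) and PD-1 low cells 7 of 15 (median 0.022). In the pooled CD8 T cells the ends were Klf2 (0.25 ± 0.14) and Ccr7 (0.08 ± 0.26), against Dapl1 (-0.56 ± 0.25) and Xcl1 (-0.66 ± 0.24). Xcl1, a chemokine, was at 561 and 581 CPM in cKO and at 564 and 1243 CPM in WT cells, so WT-2 stood apart. Of the effector genes 10 of 12 lay above 0, led by Ifng (0.76 ± 0.17, adjusted p = 0.13) and Prf1 (0.40 ± 0.18), with Ccl5 (-0.42 ± 0.11) and Gzmk (-0.59 ± 0.14, adjusted p = 0.13) below 0. Among the partners, Tle5, a gene of the Groucho family, had 0.54 ± 0.16 and Mafk 0.23 ± 0.24. The E protein genes Tcf3 and Tcf4 had -0.19 ± 0.18 and -0.41 ± 0.16. In the SLAM family Cd244a had 0.45 ± 0.20, Slamf1 0.42 ± 0.21, Ly9 -0.27 ± 0.28 and Slamf7 -0.29 ± 0.13. Cd244a was at 0.13 without WT-1 and at 0.89 without WT-2, and Slamf1 at 0.09 without cKO-1 and at 0.70 without cKO-2.

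In CD4 conventional T cells 1 of 12 exhaustion regulators and 2 of 11 effector genes rose, where 0.186% of all genes did. Nr4a1, an early gene induced by antigen receptor signals, was at 177 and 208 CPM in cKO and at 107 and 77.7 CPM in WT cells (1.07 ± 0.18, adjusted p = 0.0019). Ccl5, a chemokine of effector cells, was at 423 and 624 CPM in cKO and at 239 and 266 CPM in WT cells (1.05 ± 0.17, adjusted p = 0.00078). Ifng, the gene of interferon gamma, was at 69.9 and 100.2 CPM in cKO and at 41.7 and 32.2 CPM in WT cells (1.21 ± 0.24, adjusted p = 0.012). In each gene the genotypes did not overlap, and all 3 lost the call without cKO-2, with adjusted p of 0.64, 0.69 and 0.74. Ifng also lost it in DESeq2 (adjusted p = 0.19), at resolution 2 (0.066), with doublets kept (0.26), with the members among the clustering genes (0.069) and without WT-2 (0.079), and Ccl5 lost it at resolution 2 (0.066). None of 14 memory and stem-like genes, 10 partners or 8 SLAM family genes passed. The ends of the lists were Prdm1 (0.51 ± 0.27), Nfatc2 (0.03 ± 0.19) and Batf (-0.04 ± 0.24), Klf3 (0.29 ± 0.19), Zeb1 (0.28 ± 0.15), Xcl1 (-0.19 ± 0.23) and Il7r (-0.24 ± 0.14), Runx3 (0.12 ± 0.17) and Cx3cr1 (0.01 ± 0.30), Tox4 (0.42 ± 0.21), Tle5 (0.32 ± 0.20), Tcf12 (-0.09 ± 0.15) and Tcf3 (-0.14 ± 0.28), and Slamf7 (0.54 ± 0.25), Ly9 (0.27 ± 0.34), Cd48 (-0.12 ± 0.14) and Sh2d1a (-0.13 ± 0.20).

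In the other classes and subsets 5 list genes passed, each where 0.0434% to 0.0673% of all genes were called in its direction. Nr4a2, a relative of Nr4a1, rose in cycling CD8 T cells, at 556 and 522 CPM in cKO and at 287 and 258 CPM in WT cells (1.01 ± 0.14, adjusted p = 0.010), and lost the call with doublets kept (adjusted p = 0.058). Gzma, the gene of granzyme A, rose in PD-1 low CD8 T cells, at 762 and 1040.2 CPM in cKO and at 395 and 396.5 CPM in WT cells (1.17 ± 0.15, adjusted p = 0.0053). It lost the call with the members among the clustering genes (adjusted p = 0.14), and it stood in the subset whose macrophage marker sum was also higher in both cKO libraries. Gzma is itself 1 of the 7 NK markers summed there. Gzmb, the gene of granzyme B, fell in Treg, at 1968 and 2589 CPM in cKO and at 3819 and 3636 CPM in WT cells (-0.70 ± 0.14, adjusted p = 0.037), and lost the call without either cKO library. Nkg7 and Ccl5 fell in gamma-delta T cells (-1.70 ± 0.30 and -2.69 ± 0.47, adjusted p = 0.036 for each). Nkg7 was at 50.4 and 36.8 CPM in cKO and at 154 and 128 CPM in WT cells, and Ccl5 at 29.1 and 33.96 CPM in cKO and at 63.2 and 319 CPM in WT cells, where WT-2 decided the size. DESeq2 did not call either gene. Both lost the call with doublets kept (adjusted p = 0.18 for Nkg7 and 0.17 for Ccl5) and with the members among the clustering genes (0.28 for Nkg7 and 0.21 for Ccl5), and Nkg7 lost it without cKO-2 (0.18). Ccl5 had a log2 fold change of -0.97 without WT-2 (adjusted p = 0.60). No list gene passed in NK cells or over all T cells pooled.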

How the data were processed

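Counts are whole-number UMIs per gene and cell barcode, deposited by the authors as 1 matrix per library with 32285 features. Per the submitters' processing notes Cell Ranger, STAR and mm10 were used, with no versions given in the sources used here. Per the labels' protocols, cells were sorted for CD45 and captured with Chromium 3' chemistry.

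The cell filters required 300 or more genes, 500 or more UMIs and no more than 15% mitochondrial UMIs. Clustering used scanpy 1.11.5 (2000 variable genes, 30 principal components, 15 neighbours, Leiden resolution 1, with resolution 2 as an alternative). The automatic doublet caller marked 0 to 1 cells per library and had not worked, so cells with a doublet score over 0.2 and clusters with a median score over 0.1 were set apart. Of T and NK cells, 6.74% to 10.1% per library were left unnamed and 2.53% to 5.60% were set apart as mixed droplets. Every pair of libraries differed beyond counting noise (chi-square per degree of freedom 4.46 to 11.2 over T or NK cell sums).

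Raw UMIs were summed per library and subset. CPM are UMIs per 1e+06 UMIs of a sum, computed here. Genotypes were compared as cKO over WT with edgeR 4.0.16 (quasi-likelihood F test, TMM, filterByExpr, Benjamini-Hochberg adjustment over all genes tested, threshold 0.05), with DESeq2 1.42.0 as an alternative. Every adjusted p in the text is from edgeR unless another tool is named. SE is the log2 fold change divided by the root of F. On simulated data with 2-fold changes in 100 genes the fits recovered 86% to 94% of them per class, and 4-fold changes 99% to 100%. For an interaction of CD4 conventional against CD8 T cells, 65.7% of 2-fold changes were recovered. The changes were put only into genes with high counts, and the simulated spread followed the level of a gene alone. Recovery at low counts, such as those of Tox2, was not measured. Counting intervals and floors cover counting error only.

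Outside the 10 members, a gene of the other lists is named if it passed the threshold in any class or subset, or had 1 of the 2 largest or 2 smallest log2 fold changes in CD8 or CD4 conventional T cells at a mean of 10 CPM or more. The members and the lists were chosen with earlier results of these data known. The interactions between subsets and the fits in finer clusters were added after the data were seen. Likeness between genes is Pearson's r of log2(CPM + 1) over the subset means. Some of the genes most like Lef1 and Tox are not reported here.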

Additional observations from a re-analysis of the deposited data

How the results depend on the processing

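Counts of members past the threshold were 0 in every class, and the alternatives moved them as follows. In CD8 T cells 2 members passed with no filter on low counts (Lef1 and Slamf6) and 3 with the replicate number as a block (Lef1, Eomes and Slamf6, adjusted p of 0.0017, 0.014 and 0.0012). With no filter 5 interactions between classes and 2 fits in subsets passed, and with doublets kept 1 fit in a subset. Without 1 library, 0 to 3 members passed in all T cells, 0 to 2 in CD8, 0 to 1 in CD4 conventional T and 0 to 2 in NK cells, 0 to 3 interactions, and 0 to 4 fits in subsets. Genes called in all T cells numbered 3 in edgeR, 22 in DESeq2, 175 with no filter and 146 with the block, and in CD8 T cells 7, 13, 171 and 197. In CD4 conventional T cells they numbered 23, 13, 57 and 58, in Treg 8, 3, 28 and 15, and in NK cells 0, 8, 141 and 4. The labels do not pair the libraries, and same-numbered libraries deviated together with r of 0.111, 0.0829, 0.0265, 0.109 and 0.0528 in all T, CD8, CD4 conventional T, Treg and NK cells, so the block rests on a shared number alone.

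Direction changed for the following values. Tox in all T cells was -0.0055 with the replicate block and -0.026 with doublets kept, and in NK cells -0.0084 with doublets kept. With doublets kept, Id3 was 0.13 in all T and 0.21 in CD8 T cells, Tcf7 0.012 in CD8 T cells, Tox2 -0.25 in Treg, and in CD4 conventional T cells Batf was 0.0050 and Cx3cr1 -0.082. At resolution 2, Tox2 in Treg was -0.34, Klf2 in CD8 T cells -0.16 and Cx3cr1 in CD4 conventional T cells -0.19. Cx3cr1 was -0.015 in DESeq2, -0.014 with no filter and -0.069 with the replicate block. Tcf7 in Treg was -0.32 with the members among the clustering genes. The cause of these changes was not tested.

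Leaving out 1 library gave ranges that crossed 0 for these log2 fold changes. In all T cells they were -0.24 to 0.24 for Tox, -0.39 to 0.13 for Bach2 and -0.68 to 0.21 for Id3. In CD8 T cells they were -0.34 to 0.14 for Tox, -0.73 to 0.022 for Id3, -0.14 to 0.31 for Ccr7, -0.014 to 0.46 for Mafk, -0.024 to 0.72 for Prf1, -0.66 to 0.081 for Ly9, -1.13 to 0.041 for Xcl1 and -0.97 to 0.061 for Dapl1. In CD4 conventional T cells they were -0.21 to 0.11 for Lef1, -0.11 to 0.34 for Slamf6, -0.54 to 0.085 for Tcf7, -0.14 to 0.072 for Batf, -0.033 to 0.084 for Nfatc2, -0.031 to 0.87 for Prdm1, -0.73 to 0.44 for Cx3cr1, -0.33 to 0.063 for Sh2d1a, -0.013 to 0.66 for Ly9 and -0.43 to 0.099 for Xcl1. In Treg they were -0.19 to 0.095 for Tox, -0.064 to 0.41 for Tox2, -0.056 to 1.37 for Tcf7, -0.10 to 0.35 for Id2 and -1.86 to 0.070 for Eomes. In NK cells they were -0.033 to 0.067 for Tox, -0.042 to 0.60 for Slamf6, -0.015 to 0.57 for Id3 and -0.11 to 0.28 for Tbx21. The thinned share difference was -0.219 to 3.18 percentage points for Tox and -1.08 to 0.644 for Tcf7. With 1 library left in a genotype, that library is assumed to vary like the other 2. The subset that held each member's highest mean changed for Tox2 at resolution 2 (PD-1 low CD8 T cells), for Tox with doublets kept and without cKO-1 (Treg), and for Slamf6 with doublets kept and without WT-1 (naive-like T cells).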

Other observations

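In macrophages of the same libraries 9 of the 10 members were tested, 5 with a log2 fold change above 0 and 4 below (median 0.00051). The 3 members whose genotypes did not overlap there were Bach2, Slamf6 and Id2. Bach2 was at 138 and 138 CPM in cKO-1 and cKO-2, against 165 and 150.4 CPM in WT-1 and WT-2 (log2 fold change -0.20 ± 0.09 SE, edgeR adjusted p = 0.83). Slamf6 was at 27.5 and 27.4 CPM in cKO and at 35.2 and 28.8 CPM in WT macrophages (-0.23 ± 0.12, edgeR adjusted p = 0.88). Id2 was at 225 and 236 CPM in cKO and at 269 and 264 CPM in WT macrophages (-0.22 ± 0.09, edgeR adjusted p = 0.82). Both cKO libraries thus lay below both WT libraries in 3 of 9 members, against 16.5% of 13118 genes tested in macrophages. They lay above in 0 of 9, against 18.9%, and no gene passed the threshold there. In macrophages thinned to 2000 UMIs, Bach2 was found in 15.5% to 21.5% of cells, where Tox was found in 1.02% to 1.74%.

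Vsir, the gene of VISTA that the series title names, was at 60.8 and 62.2 CPM in cKO and at 65.5 and 56.7 CPM in WT T cells, and at 104 and 103 CPM in cKO and at 109 and 96.3 CPM in WT macrophages. The genotypes overlapped in both.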
